A study of Mus musculus with 6 samples.

Results

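The hearts with animal numbers from 444 to 454 gave 4 of the 6 bead array profiles of the series, and they were chosen by those numbers in the labels. After transverse aortic constriction (TAC) they were animal 445, labelled WT TAC rep1, and animal 446, labelled *Kdm3a*-Tg TAC rep1. After sham surgery they were animal 444, labelled WT Sham, and animal 454, labelled *Kdm3a*-Tg Sham. The 2 TAC arrays were compared with the 2 sham arrays, with genotype by label as a term. The other TAC hearts, rep2 of each genotype (animals 17 and 18), were left out of that comparison and are shown beside it. All were male mice of c57/BL6 background, operated on at 6 to 8 weeks of age, and left ventricle was taken 3 weeks after surgery. The study's text gives a longer time after TAC for its *Kdm3a*-Tg mice. WT mice carried no transgene, and *Kdm3a*-Tg (Tg) mice carried a FLAG-tagged mouse *Kdm3a* cDNA behind the αMHC promoter, which is active in heart muscle cells. The study's text says that the results it presents came from 1 of its transgenic lines. Each combination of genotype and surgery among the 4 held a single animal.

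TAC narrows the aortic arch, so that the left ventricle pumps against a higher pressure. The pressure-loaded ventricle is known to thicken, to express again genes of the fetal heart such as the natriuretic peptides, to deposit collagen between its muscle cells, and to burn less fatty acid. KDM3A removes methyl groups from lysine 9 of histone H3, a mark of silent chromatin.

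Values below are normalized log2 intensities, 1 per array. Where a pair of values is given, the library labelled WT stands before the library labelled Tg. *Kdm3a* itself was read first, as a check of the labels. Its brightest probe, which stands for the gene below, was 14.70 and 15.10 in the TAC libraries, against 7.83 and 7.48 in the sham libraries. The TAC rep2 libraries had 7.19 and 15.07. The library labelled WT TAC rep1 therefore had the level of the Tg TAC libraries, and the library labelled Tg Sham had the level of WT Sham, so both went against their genotype label on this probe. Of the 3 other *Kdm3a* probes, 1 was detected on no array and the other 2 showed no such step. Their raw intensities were 301 and 246, and 728 and 497, in the TAC rep1 libraries, 243 and 238, and 495 and 392, in the TAC rep2 libraries, and 287 and 249, and 755 and 468, in the sham libraries. These 2 probes did not set the Tg TAC libraries apart from the WT libraries either, so the label check rests on the brightest probe alone. Both TAC libraries were high and both sham libraries low, with a difference of 7.24 ± 0.14 SE, adjusted p = 1.0e-15. Among these 4 libraries TAC and a high signal of this probe cannot be told apart, in any difference given below. Where each probe lies relative to the transgene was not known here. *Myl2*, the ventricular myosin light chain gene, lay between 15.14 and 15.25 on all 6 arrays. Of 21 fibroblast markers 20, of 21 endothelial markers 19 and of 28 macrophage markers 22 were detected on at least 2 arrays, and the labels give left ventricle. Of the genes of atrial muscle set for this check, *Sln* was detected on no array and *Myl7* on 1, the library labelled WT TAC rep1. *Myl4*, also a gene of fetal ventricle, was detected on all 6 arrays by its brightest probe. It was 8.41 and 9.05 in the TAC libraries, against 7.10 and 7.38 in the sham libraries. Probes detected on an array numbered 16492 and 16133 in the TAC libraries, against 16298 and 15643 in the sham libraries.

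TAC was set against sham in these 4 libraries, where pressure overload and a high signal of the brightest *Kdm3a* probe cannot be told apart. Collagens and other matrix genes, *Timp1*, the natriuretic peptide genes and markers of fibroblasts and macrophages were higher in the TAC libraries, and genes of fatty acid oxidation and of several ion channels were lower. Limma called 1165 of 9577 genes at an adjusted p under 0.05 (12.2%), 659 higher (6.88%) and 506 lower (5.28%). Of these, 145 were more than 2-fold higher and 62 more than 2-fold lower. The 2 TAC arrays lay above both sham arrays for 2118 genes (22.1%) and below both for 1726 (18%). Of the called genes, 658 of the 659 were higher in both genotype pairs and 505 of the 506 were lower in both, while 137 had groups that overlapped because the genotype term was taken out first. Of all 9577 genes, 3481 were higher in both pairs and 2956 lower in both. The residual of this fit is the difference between the 2 pairs, so agreement of the called genes is largely set by the calling and is no separate support. Standard errors (SE) of the difference had a median of 0.16. The same fit called 1403 genes (14.6%) between Tg and WT by label.

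The fit leaves 1 residual degree of freedom, and limma added the worth of 15.7 more from the spread of all genes, so the count of calls rests mostly on spread shared between genes. Without the genotype term 3 genes were called, and with the TAC rep2 libraries added as TAC, 0 were called (559 at an unadjusted p under 0.05). Without the intensity trend 355 were called. Setting the medians of the arrays equal in place of their whole distributions moved the median difference of all genes by over 0.1, to 0.13 against 0.02, and turned the split to 1080 higher and 313 lower. An exact permutation test of 2 arrays against 2 cannot give a two-sided p below 0.333 for any gene.

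Across the 9577 genes the difference of the Tg pair (Tg TAC rep1 minus Tg Sham) followed that of the WT pair (WT TAC rep1 minus WT Sham), with Pearson r = 0.59 and Spearman rho = 0.50. These are correlations across genes, which are not independent replicates, and each pair is 1 array minus 1 array. Differences spread with an SD of 0.47 in the Tg pair and 0.37 in the WT pair. An interaction term over all 6 arrays, which asks for a response that is unlike in Tg and WT, passed the threshold in 0 genes by limma (smallest adjusted p = 0.78), and 472 had a p under 0.05 before adjustment. This fit left 1 residual degree of freedom and took the genotype labels as given. On the brightest *Kdm3a* probe WT TAC rep1 was 14.70, the other library labelled WT TAC 7.19 and Tg Sham 7.48. *Kdm3a* itself, at 4.49 in this term, was not called. The absence of calls therefore does not settle whether the response was alike in Tg and WT.

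**Figure D1:**
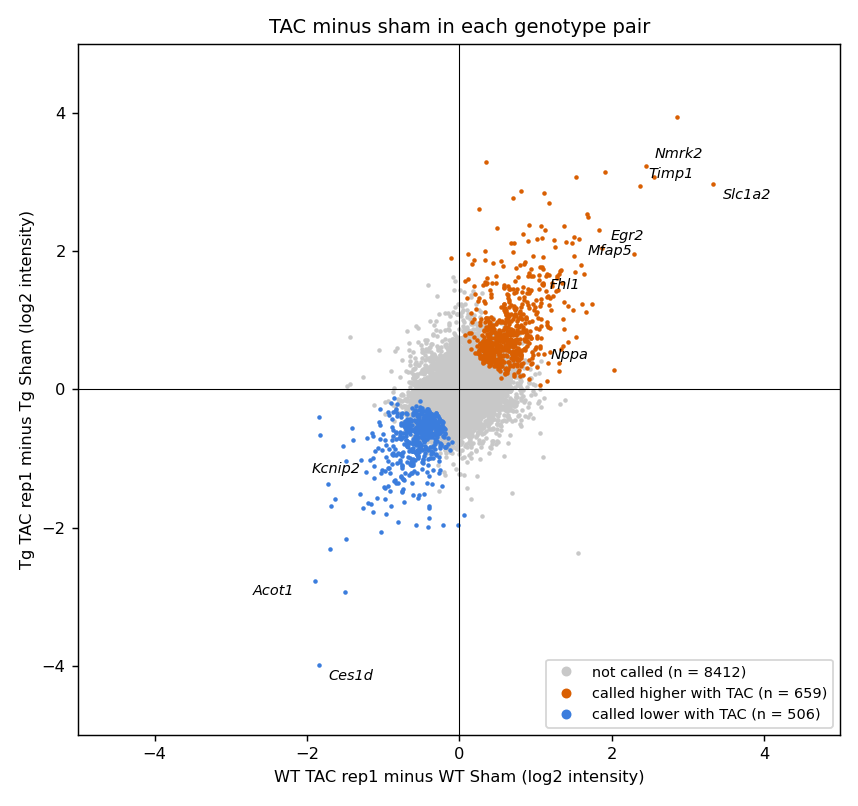
TAC minus sham for 9577 genes, in log2 intensity, with the WT pair on the x axis and the Tg pair on the y axis (1 array minus 1 array each). Of the called genes, 658 of 659 higher ones lie in the upper right corner and 505 of 506 lower ones in the lower left, which the calling itself favours. *Kdm3a* lies outside the axes.

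The 24 genes with the largest differences, 12 in each direction, were taken from the called genes whose groups did not overlap, leaving out predicted genes and unnamed clones, and *Kdm3a* led those that were higher. Of the other 11, *Timp1*, a secreted inhibitor of matrix metalloproteinases, was 9.46 and 10.17 in the TAC libraries, against 7.10 and 7.22 in the sham libraries. It was 6.31-fold higher with TAC (2.66 ± 0.16 SE, adjusted p = 1.7e-08). *Nmrk2*, a nicotinamide riboside kinase that is known to rise in stressed heart muscle, was 10.17 and 12.02 in the TAC libraries, against 7.72 and 8.78 in the sham libraries, a 7.18-fold difference (2.84 ± 0.16 SE, adjusted p = 7.5e-09). Both TAC libraries stood above both sham libraries by more than 1 log2 unit in these 2 genes, and the Tg TAC library was the higher one. *Dkk3*, a secreted glycoprotein of the Dickkopf family, was 7.79 and 8.61 in the TAC libraries, against 6.12 and 6.07 in the sham libraries (2.10 ± 0.21 SE, adjusted p = 5.8e-06). *Fgl2*, a fibrinogen-like protein of immune and endothelial cells, was 8.74 and 8.99 in the TAC libraries, against 7.06 and 6.48 in the sham libraries (2.09 ± 0.19 SE, adjusted p = 2.4e-06). *Lman1l*, a relative of the ER lectin gene *Lman1*, was 7.22 and 8.38 in the TAC libraries, against 5.39 and 6.07 in the sham libraries (2.07 ± 0.20 SE, adjusted p = 4.8e-06). *Septin6*, a cytoskeletal GTPase gene, was 8.43 and 8.63 in the TAC libraries, against 6.14 and 6.66 in the sham libraries (2.13 ± 0.17 SE, adjusted p = 6.1e-07). In each of these 4 genes the TAC libraries lay above both sham libraries.

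The other 5 were dim or not detected in the sham libraries. *Slc1a2*, a glutamate transporter gene, was 7.95 and 8.19 in the TAC libraries and not detected in the sham libraries (4.62 and 5.22), which makes it at least 6.50-fold higher (adjusted p = 4.1e-08). Such a bound sets the mean of the brighter side against the mean, over the dim arrays, of the lowest signal that was detected there or the gene's own, whichever was higher. The adjusted p printed beside a bound, here and below, is from the limma fit of the normalized values, those below detection included. The bound itself was not tested. The sodium-proton exchanger gene *Slc9a3* was at least 3.65-fold higher (adjusted p = 1.3e-05), *Fam205c* at least 3.07-fold (adjusted p = 7.9e-05) and the cadherin gene *Cdh16* at least 2.39-fold (adjusted p = 0.00057). *Tmprss13*, a membrane serine protease gene, was 8.23 and 8.24 in the TAC libraries, against 5.67 and 5.16 in the sham libraries, with detection on 1 sham array (2.82 ± 0.20 SE, adjusted p = 1.3e-07). On the TAC rep2 arrays these 11 genes did not all lie together. *Slc1a2* was 4.85 and 8.73 there, *Tmprss13* 6.35 and 9.33, *Septin6* 5.90 and 8.74 and *Cdh16* 4.67 and 8.45. *Fam205c* was 4.8833 and 7.997 there, *Fgl2* 6.9433 and 8.4996, *Slc9a3* 4.95 and 6.85 and *Timp1* 6.42 and 7.94. All of these were higher in the Tg than in the WT library, as *Kdm3a* was. *Kdm3a* lay below both shams in the WT library, but *Tmprss13* and *Slc9a3* lay above both shams there. *Timp1* lay below both shams in the WT and above both in the Tg TAC rep2 library, and below both TAC rep1 libraries. Whether these genes follow the *Kdm3a* signal in the TAC rep2 libraries was not tested. *Nmrk2* was 7.36 and 7.25 there, *Dkk3* 6.08 and 6.43 and *Lman1l* 4.90 and 5.72, with both TAC rep2 libraries below both TAC rep1 libraries.

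The promoter of *Timp1* is shown because this gene had the largest difference of the matrix lists, with 150 bases before the RefSeq transcription start (build GRCm38.p6, chrX:20870016-20870165 on the plus strand), printed 5′ to 3′. Capitals mark matches to 4 motifs searched on both strands in these stretches, which were TATAAA (the TATA box), GGGCGG (a GC box), CACGTG (an E-box) and the CArG box. The stretch held 1 match, GGGCGG on the reverse strand from base -8 to base -3.
Timp1: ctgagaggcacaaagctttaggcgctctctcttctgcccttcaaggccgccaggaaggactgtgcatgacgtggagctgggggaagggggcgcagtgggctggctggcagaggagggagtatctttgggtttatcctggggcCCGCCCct
Of 32851 promoter entries of RefSeq, 32.7% held GGGCGG on either strand within 250 bases before the start, 12.4% TATAAA, 6.02% CACGTG and 1.47% a CArG box. A match is a match of letters and was not tested for binding.

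Of the 12 genes with the largest negative differences, several act on fatty acids. *Ces1d*, a carboxylesterase that splits neutral lipid, was 10.31 and 7.77 in the TAC libraries, against 12.15 and 11.76 in the sham libraries, 7.55-fold lower with TAC (-2.92 ± 0.29 SE, adjusted p = 6.3e-06). *Acot1*, a cytosolic acyl-CoA thioesterase that PPARα drives, was 7.93 and 6.72 in the TAC libraries, against 9.83 and 9.49 in the sham libraries, 5.05-fold lower (-2.34 ± 0.18 SE, adjusted p = 3.8e-07). *Acsl6*, which couples long fatty acids to coenzyme A, was 7.10 and 5.96 in the TAC libraries, against 8.61 and 8.90 in the sham libraries (-2.22 ± 0.24 SE, adjusted p = 1.6e-05). In these 3 genes both TAC libraries lay below both sham libraries, and the Tg TAC library was the lower one. *Tecr*, the last reductase of fatty acid elongation, was 12.33 and 11.71 in the TAC libraries, against 13.60 and 13.43 in the sham libraries (-1.49 ± 0.12 SE, adjusted p = 4.3e-07). *Retnla*, a secreted product of alternatively activated macrophages and of adipose tissue, was 5.51 and 5.71 in the TAC libraries, against 7.19 and 7.41 in the sham libraries (-1.69 ± 0.20 SE, adjusted p = 4.0e-05).

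Among the remaining 7, *Lgals4*, a galectin gene, was 7.96 and 7.70 in the TAC libraries, against 9.10 and 9.48 in the sham libraries (-1.46 ± 0.16 SE, adjusted p = 2.4e-05). *Myot*, which encodes the Z-disc protein myotilin, averaged 6.93 ± 0.10 in the TAC libraries and 8.35 ± 0.21 in the sham libraries (SD, n = 2 each), a difference of -1.42 ± 0.17 SE. *Ttll1*, a tubulin glutamylase gene, was 8.73 and 7.69 in the TAC libraries, against 9.76 and 9.75 in the sham libraries (-1.54 ± 0.19 SE, adjusted p = 4.4e-05). No TAC library reached the lower sham library in these 3 genes. *Lgi1*, which encodes a secreted synaptic protein, was not detected in the TAC libraries (4.74 and 4.36) and had 6.44 and 6.66 in the sham libraries, so it was at least 2.38-fold lower (adjusted p = 6.2e-05). *Dnaaf3* differed by -1.82 ± 0.21 SE, *Pdzd3* by -1.41 ± 0.18 SE and the glycerophosphocholine phosphodiesterase gene *Gpcpd1* by -1.55 ± 0.22 SE, the last detected on 1 TAC array. *Acot1* was 10.19 and 9.59 and *Lgals4* 10.35 and 9.74 in the TAC rep2 libraries, each above the lower sham, while *Pdzd3* was 7.60 and 4.64 and *Myot* 7.63 and 6.34 there, below both shams.

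**Figure D2:**
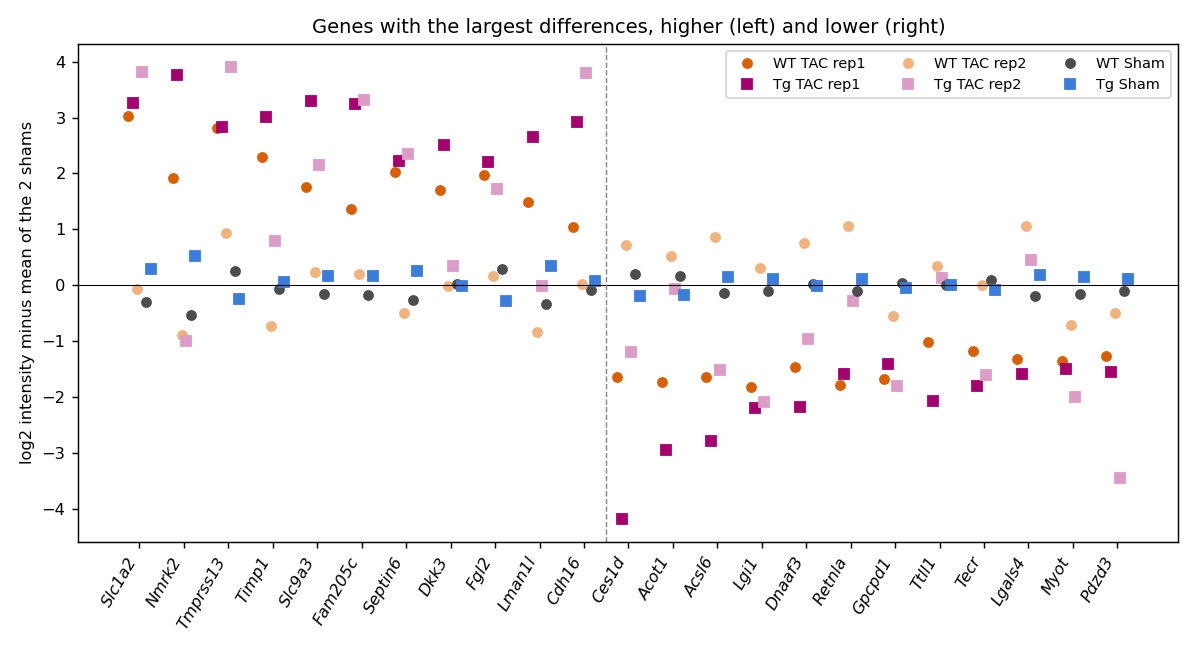
Log2 intensity minus the mean of the 2 sham libraries for 23 of the 24 genes with the largest differences (*Kdm3a* left out for scale), 1 point per array. The TAC rep1 points lie above both shams for the 11 genes on the left and below both for the 12 on the right; the paler TAC rep2 points lie on either side.

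Extracellular matrix genes were higher in the TAC libraries. Of 66 listed symbols 48 were measured, that is, detected on at least 2 of the 6 arrays, and 34 of these were called higher and 0 lower, where 6.88% of all genes were called higher. Their median difference was 0.68, against 0.02 over all genes. A gene can pass the detection filter through the side where it is bright, so these counts describe the measured members only. *Mfap5*, a microfibril protein gene, was 11.71 and 11.79 in the TAC libraries, against 10.14 and 9.61 in the sham libraries (1.87 ± 0.14 SE, adjusted p = 1.8e-07). *Col8a1*, a short-chain collagen gene, was 10.95 and 11.44 in the TAC libraries, against 9.47 and 9.32 in the sham libraries (1.80 ± 0.14 SE, adjusted p = 4.7e-07). *Mfap4*, another microfibril-associated gene, was 10.21 and 10.60 in the TAC libraries, against 8.70 and 8.67 in the sham libraries (1.72 ± 0.14 SE, adjusted p = 4.9e-07). In all 3 the TAC libraries lay more than 1 log2 unit above the shams.

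The fibrillar collagen gene *Col3a1* was 9.59 and 9.55 in the TAC libraries, against 7.99 and 8.31 in the sham libraries, 2.68-fold higher (1.42 ± 0.14 SE, adjusted p = 8.2e-06). *Col1a1* was 10.52 and 10.29 in the TAC libraries, against 9.56 and 9.06 in the sham libraries (1.10 ± 0.13 SE, adjusted p = 3.1e-05). *Col1a2* differed by 1.24 ± 0.17 SE, the fibril-regulating *Col5a1* by 0.97 ± 0.13 SE, the fibril-associated *Col16a1* by 1.42 ± 0.15 SE and *Fbln2*, a linker of elastic fibres, by 1.08 ± 0.12 SE, each called higher. *Sparc*, a collagen-binding matricellular protein gene, was 13.30 and 13.12 in the TAC libraries, against 12.95 and 12.42 in the sham libraries (0.53 ± 0.11 SE, adjusted p = 0.0046), with a smaller difference than these. Of the other measured matrix genes, 14 were not called, with differences between -0.26 and 0.61.

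Genes that crosslink, process or cleave the matrix were also higher, with 15 of 29 measured genes (of 47 listed) called higher and 1 lower, and a median difference of 0.43. *Lox*, the lysyl oxidase that crosslinks collagen and elastin, was 7.92 and 8.73 in the TAC libraries, against 6.85 and 6.37 in the sham libraries (1.72 ± 0.23 SE, adjusted p = 0.00012), and its relative *Loxl1* was 11.41 and 11.96 in the TAC libraries, against 10.76 and 10.76 in the sham libraries (0.92 ± 0.13 SE, adjusted p = 0.00016). *Pcolce*, which speeds the trimming of procollagen, differed by 1.16 ± 0.13 SE, the collagen-degrading cathepsin gene *Ctsk* by 1.04 ± 0.15 SE and *Adam9*, a membrane metalloproteinase gene, by 0.94 ± 0.15 SE, all called higher. The member called lower was *Timp4*, another inhibitor of metalloproteinases, at -0.56 ± 0.14 SE; it was named after its value was seen. Of 27 measured genes of the TGF-beta pathway, which drives fibroblasts to make matrix, 6 were called higher and 0 lower (median 0.30). That is 22.2%, where 6.88% of all genes were called higher. The ligand gene *Tgfb2* was 7.23 and 8.07 in the TAC libraries, against 6.40 and 6.84 in the sham libraries (1.03 ± 0.18 SE, adjusted p = 0.0014) and *Tgfb3* was 8.02 and 8.83 in the TAC libraries, against 7.43 and 7.36 in the sham libraries (1.03 ± 0.19 SE, adjusted p = 0.0018). *Tgfb1*, the third ligand gene, was 8.69 and 8.09 in the TAC libraries, against 8.60 and 8.30 in the sham libraries and was not called (-0.06 ± 0.15 SE, adjusted p = 0.86). The receptor gene *Tgfbr2* differed by 0.61 ± 0.12 SE and *Ltbp3*, which binds the latent ligand, by 0.73 ± 0.14 SE, both called higher.

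Markers of fibroblasts and macrophages moved with the matrix genes. Of 20 measured fibroblast markers (of 21 listed) 11 were called higher and 1 lower (*Gsn*, an actin-severing gene, -0.55 ± 0.16 SE), with a median of 0.54. Of all genes 6.88% were called higher and 5.28% lower. Their summed intensity was 15.28 and 15.32 in the TAC libraries, against 14.96 and 14.68 in the sham libraries, on the log2 scale. The list shares 5 genes with the matrix list, and of the other 15, 7 were called higher and 1 lower, with a median of 0.50. *Pi16*, a marker of adventitial fibroblasts, was 9.93 and 10.85 in the TAC libraries, against 8.78 and 9.19 in the sham libraries (1.41 ± 0.14 SE, adjusted p = 6.4e-06), and *Meox1*, a transcription factor gene of activated fibroblasts, was 10.44 and 10.60 in the TAC libraries, against 9.38 and 9.40 in the sham libraries (1.13 ± 0.12 SE, adjusted p = 1.6e-05). *Pdgfra* and *Tcf21*, defining markers of resident fibroblasts, differed by 0.17 ± 0.13 SE and 0.38 ± 0.17 SE and were not called; these and *Gsn* were named after their values were seen. *Gpx3*, a secreted glutathione peroxidase gene, differed by 1.51 ± 0.15 SE.

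All 22 measured macrophage markers (of 28 listed symbols) had positive differences and 14 were called, with a median of 0.56, where 6.88% of all genes were called higher. Their summed intensity was 14.56 and 14.52 in the TAC libraries, against 14.15 and 13.93 in the sham libraries. The complement gene *C1qb*, made by tissue macrophages, was 10.94 and 10.80 in the TAC libraries, against 10.02 and 10.13 in the sham libraries (0.80 ± 0.12 SE, adjusted p = 0.00034), *Laptm5*, a lysosomal gene of leukocytes, was 11.16 and 11.39 in the TAC libraries, against 10.48 and 10.66 in the sham libraries (0.70 ± 0.11 SE, adjusted p = 0.00057), and *Cd14*, a coreceptor for bacterial lipid, was 8.78 and 7.94 in the TAC libraries, against 7.85 and 7.10 in the sham libraries (0.89 ± 0.16 SE, adjusted p = 0.0013). What part these cells have in the matrix result was not tested, and in whole ventricle more cells of a type and more RNA per cell cannot be told apart. Of 14 neutrophil markers 5 were measured and 1 called higher. Of 19 lymphocyte markers 3 were measured and 0 called, with all at an unadjusted p above 0.05.

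**Figure D3:**
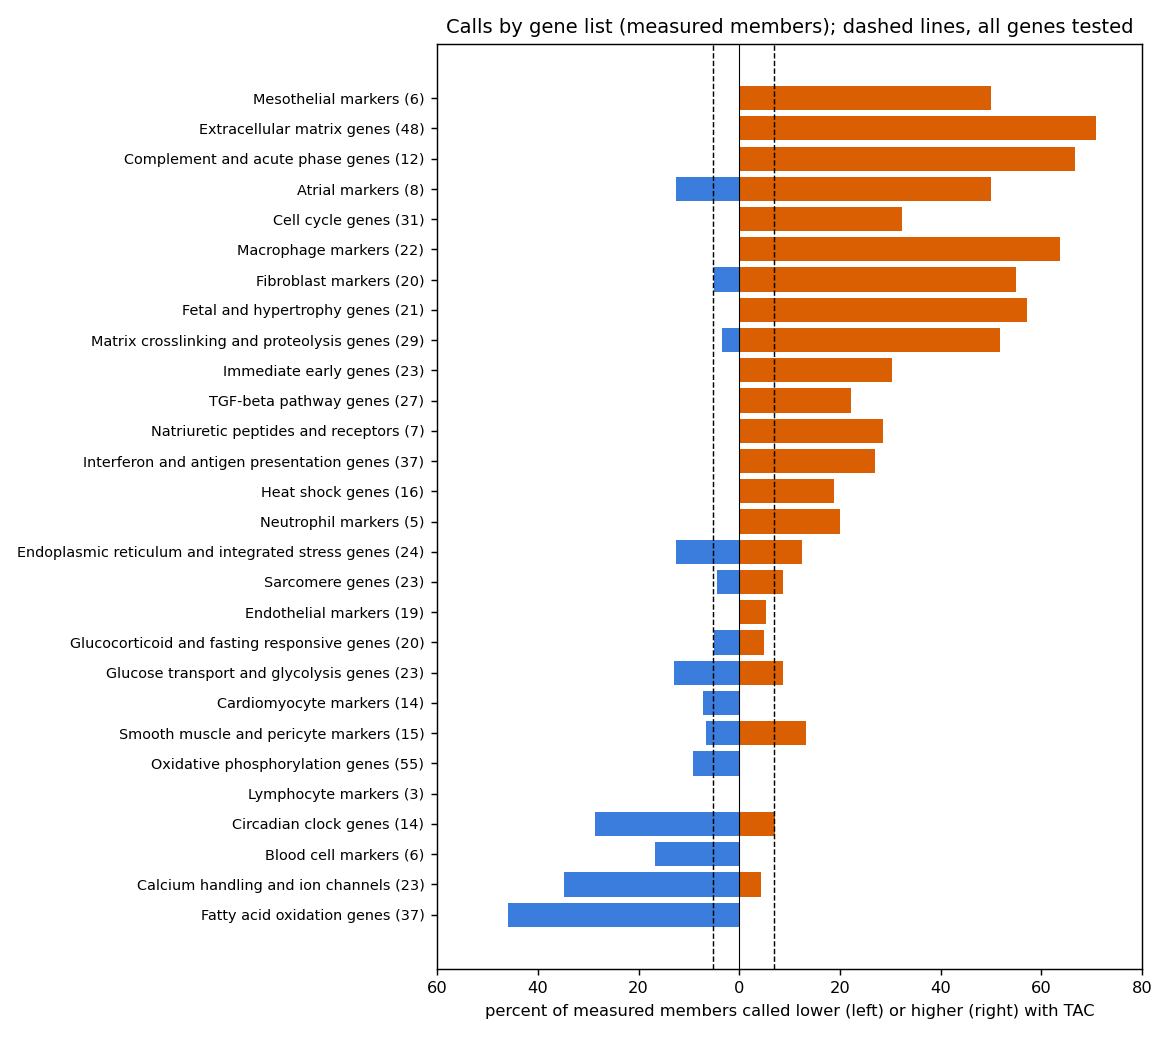
Percent of the measured members of 28 gene lists called higher (orange, right) or lower (blue, left) with TAC, with the number measured in parentheses and the lists ordered by their median difference. Dashed lines mark the 6.88% called higher and 5.28% called lower of all genes; matrix, complement, macrophage and fetal genes reach farthest to the right and fatty acid oxidation genes farthest to the left.

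Genes of the fetal and hypertrophic program were higher in part. Of 21 measured 12 were called higher and 0 lower, with a median of 0.51, where 6.88% of all genes were called higher. The 9 that were not called had differences between -0.33 and 0.77. Among them the skeletal actin gene *Acta1* was 14.10 and 13.66 in the TAC libraries, against 13.88 and 14.53 in the sham libraries (-0.33 ± 0.17 SE, adjusted p = 0.24). It was named after its value was seen. *Nppa*, which encodes atrial natriuretic peptide, was 15.22 and 15.28 in the TAC libraries, against 14.16 and 14.68 in the sham libraries (0.83 ± 0.11 SE, adjusted p = 0.00013). *Nppb*, which encodes brain natriuretic peptide, was 14.08 and 14.72 in the TAC libraries, against 13.76 and 13.87 in the sham libraries (0.58 ± 0.12 SE, adjusted p = 0.0035). Both peptide genes were higher in every TAC rep1 library than in either sham. In the TAC rep2 libraries they were below the shams, with 13.08 and 12.46 for *Nppa* and 12.83 and 12.23 for *Nppb*. With those libraries added as TAC, the differences of *Nppa* and *Nppb* were -0.41 and -0.35 and neither was called.

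*Fhl1*, a LIM-domain gene of stretch sensing at the sarcomere, was 12.57 and 13.14 in the TAC libraries, against 11.53 and 11.69 in the sham libraries (1.25 ± 0.12 SE, adjusted p = 3.5e-06). *Rcan1*, a target and inhibitor of calcineurin, was 11.71 and 12.52 in the TAC libraries, against 10.99 and 11.37 in the sham libraries (0.94 ± 0.12 SE, adjusted p = 7.7e-05), and *Pfkp*, a phosphofructokinase isoform of the fetal heart, was 10.01 and 10.81 in the TAC libraries, against 9.19 and 9.39 in the sham libraries (1.12 ± 0.14 SE, adjusted p = 7.8e-05). *Myl4*, the light chain gene of fetal ventricle and adult atrium, was 8.41 and 9.05 in the TAC libraries, against 7.10 and 7.38 in the sham libraries (1.49 ± 0.16 SE, adjusted p = 1.6e-05). In these 4 genes the groups did not overlap. The slow myosin gene *Myh7* was 8.35 and 10.60 in the TAC libraries, against 8.44 and 8.97 in the sham libraries, high in the Tg TAC library alone, and was not called (0.77 ± 0.25 SE, adjusted p = 0.053), though it was with median scaling (adjusted p = 0.043). The fast myosin gene *Myh6* differed by -0.18 ± 0.10 SE, adjusted p = 0.31, on its brightest probe. A second *Myh6* probe, detected on all 6 arrays, was 11.95 and 12.30 in the TAC libraries, against 12.73 and 12.79 in the sham libraries. That probe was not tested on its own, so whether *Myh6* was lower is not settled by the first. Of 23 measured sarcomere genes 2 were called higher (*Myl4* and *Mybphl*) and 1 lower (*Tcap*, -0.46 ± 0.10 SE), with a median of 0.02. These counts are near the share of all genes, 6.88% called higher and 5.28% lower. *Mybphl* was 5.54 and 6.48 in the TAC libraries and not detected in the shams, at least 1.56-fold higher (adjusted p = 0.0035).

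The *Nppb* promoter is shown as that of a gene of the hypertrophic program, with 150 bases before the start in the same build (chr4:147985750-147985899 on the plus strand). TATAAA lay from base -31 to base -26, and the 3 other motifs had no match in this stretch.
Nppb: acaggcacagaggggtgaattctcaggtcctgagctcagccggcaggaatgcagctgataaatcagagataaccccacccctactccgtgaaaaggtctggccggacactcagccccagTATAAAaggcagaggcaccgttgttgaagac

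**Figure D4:**
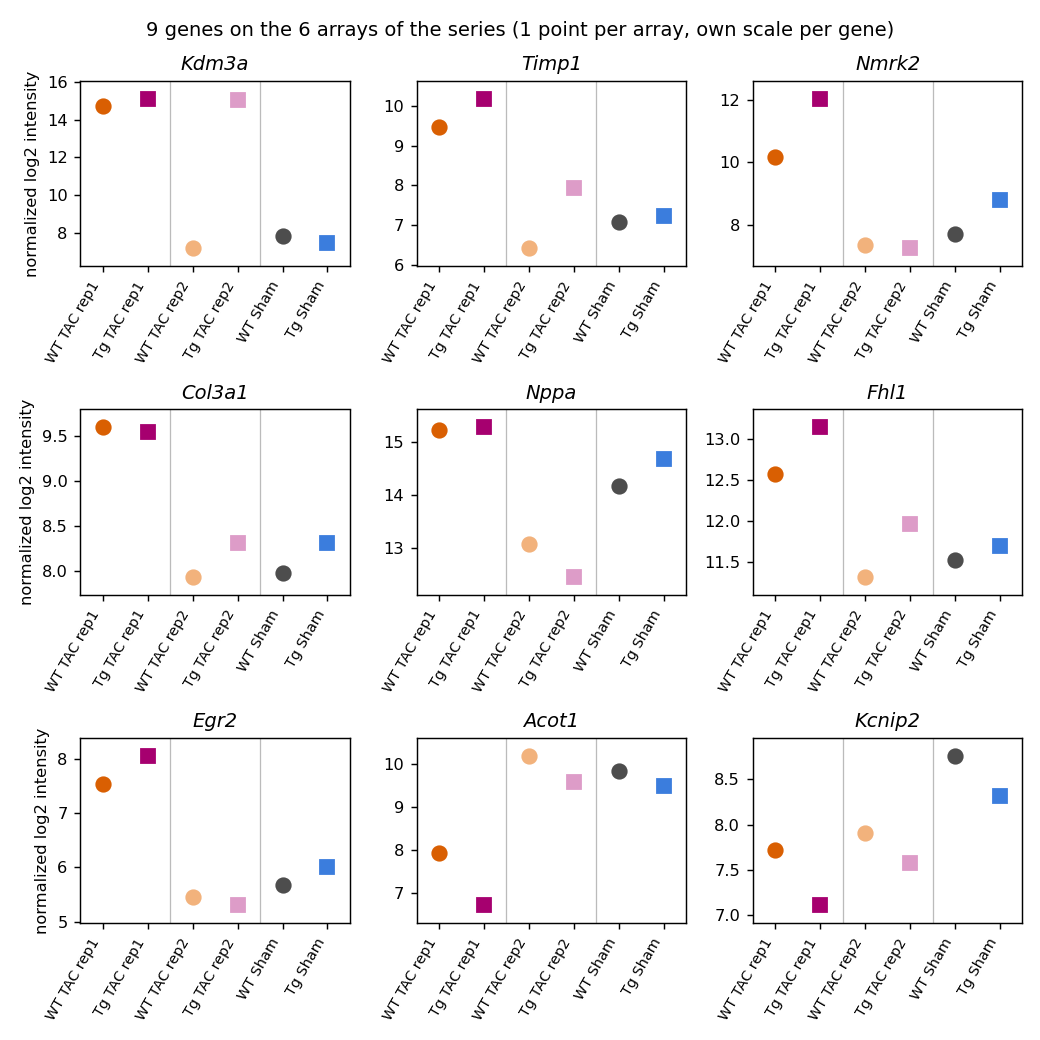
Normalized log2 intensity of 9 genes on the 6 arrays, 1 point per array and an own y axis for each gene. The TAC rep1 arrays stand apart from both shams in all 9 genes, with 15.22 and 15.28 against 14.16 and 14.68 for *Nppa*, and in 7 of the 9 both TAC rep2 arrays lie outside the range of the TAC rep1 arrays.

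Genes of fatty acid oxidation were lower in the TAC libraries. Of 37 measured 17 were called lower and 0 higher, against 5.28% of all genes called lower, with a median of -0.39. *Acaa2*, the thiolase of the last step of mitochondrial β-oxidation, was 10.74 and 11.04 in the TAC libraries, against 11.67 and 12.17 in the sham libraries, 2.04-fold lower (-1.03 ± 0.11 SE, adjusted p = 1.6e-05). *Eci1*, an isomerase for unsaturated fatty acids, was 12.59 and 12.11 in the TAC libraries, against 13.08 and 12.98 in the sham libraries (-0.68 ± 0.11 SE, adjusted p = 0.00072). Both TAC libraries lay below both shams in each. *Ces1d*, *Acot1* and *Acsl6*, given above, had the largest negative differences of the list. *Plin4*, a lipid droplet gene, was 11.08 and 10.57 in the TAC libraries, against 11.73 and 11.22 in the sham libraries (-0.65 ± 0.11 SE, adjusted p = 0.00089). It was the only measured gene of 9 adipocyte markers, and *Adipoq*, a defining one, was not measured.

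Oxidative phosphorylation genes differed less. Of 55 measured, 49 had negative differences, but 5 were called lower (9.09%, where 5.28% of all genes were) and 0 higher (0%, where 6.88% of all genes were), with a median of -0.15. The ATP synthase gene *Atp5a1* differed by -0.37 ± 0.10 SE, adjusted p = 0.028 and the complex II gene *Sdhb* by -0.34 ± 0.10 SE, adjusted p = 0.04. Of 23 glucose transport and glycolysis genes 2 were called higher and 3 lower, with a median of 0.00. *Slc2a4*, the insulin-regulated glucose transporter gene, was 10.56 and 10.42 in the TAC libraries, against 11.27 and 11.09 in the sham libraries (-0.69 ± 0.11 SE, adjusted p = 0.00072), and the glycolytic *Pfkp* was higher, as given above.

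Calcium handling and ion channel genes were lower more often than higher. Of 23 measured 8 were called lower and 1 higher, with a median of -0.30, where 5.28% of all genes were called lower and 6.88% higher. *Kcnip2*, the subunit that the fast transient outward potassium current needs, was 7.72 and 7.11 in the TAC libraries, against 8.76 and 8.31 in the sham libraries, 2.17-fold lower (-1.12 ± 0.16 SE, adjusted p = 0.00016). *Hrc*, a calcium-binding protein gene of the sarcoplasmic reticulum, was 12.64 and 12.95 in the TAC libraries, against 13.18 and 13.55 in the sham libraries (-0.57 ± 0.10 SE, adjusted p = 0.0013). *Cacna1h*, a T-type calcium channel gene, was 6.73 and 6.35 in the TAC libraries, against 7.47 and 7.64 in the sham libraries (-1.01 ± 0.19 SE, adjusted p = 0.0022). The member called higher, the potassium channel subunit gene *Kcne1*, was 8.74 and 9.36 in the TAC libraries, against 8.25 and 7.03 in the sham libraries (1.41 ± 0.27 SE, adjusted p = 0.0022). Among cardiomyocyte markers 1 of 14, the phospholamban gene *Pln*, was called lower (-0.40 ± 0.10 SE), with a median of -0.07, and their summed intensity was 18.35 and 18.43 in the TAC libraries, against 18.43 and 18.47 in the sham libraries.

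Immediate early genes, which answer stretch, hormones and handling within minutes, were called higher in 7 of 23 measured members and lower in 0, with a median of 0.32. Of all genes 6.88% were called higher. Relative to each gene's sham mean, the list lay at 0.37 and 0.25 in the TAC libraries. It lay at 0.31 and -0.31 in the sham libraries, so the library labelled WT Sham was level with TAC. The median was 0.15 in the WT pair and 0.56 in the Tg pair, and 4 members had negative differences, against 19 positive. *Egr2* was 7.55 and 8.06 in the TAC libraries, against 5.68 and 6.01 in the sham libraries, 3.89-fold higher (1.96 ± 0.19 SE, adjusted p = 5.2e-06), and *Egr3* was 7.59 and 8.20 in the TAC libraries, against 6.31 and 6.55 in the sham libraries (1.46 ± 0.18 SE, adjusted p = 6.2e-05). Both zinc finger genes were clear of the shams in each TAC library. *Fos* was 9.37 and 9.19 in the TAC libraries, against 8.52 and 8.60 in the sham libraries (0.72 ± 0.14 SE, adjusted p = 0.0025) and *Junb* was 9.26 and 9.67 in the TAC libraries, against 8.90 and 8.96 in the sham libraries (0.54 ± 0.14 SE, adjusted p = 0.017). *Egr1* was 10.08 and 12.31 in the TAC libraries, against 9.58 and 11.74 in the sham libraries, where the groups overlapped, and it passed the threshold after the genotype term (0.54 ± 0.11 SE, adjusted p = 0.0046). 
The *Egr2* promoter is shown as that of the immediate early gene with the largest difference. It carried a CArG box, the element read by serum response factor, from base -72 to base -63 and GGGCGG on the reverse strand from base -35 to base -30, before 1 of its 5 RefSeq starts (chr10:67537416-67537565 on the plus strand). That start was taken because its stretch held the rarest of the 4 motifs.
Egr2: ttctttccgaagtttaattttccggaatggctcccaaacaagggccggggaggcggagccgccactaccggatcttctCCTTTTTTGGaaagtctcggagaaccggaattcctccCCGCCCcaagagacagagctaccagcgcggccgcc

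Circadian clock genes had a median of -0.26, with 4 of 14 called lower and 1 higher, where 5.28% of all genes were called lower and 6.88% higher. *Dbp*, an output gene of the clock, was 8.73 and 10.84 in the TAC libraries, against 10.56 and 11.51 in the sham libraries (-1.25 ± 0.18 SE, adjusted p = 0.00028). *Ciart*, a repressor within the clock, was 5.46 and 5.89 in the TAC libraries, against 6.86 and 6.62 in the sham libraries (-1.07 ± 0.22 SE, adjusted p = 0.0048), and *Cry2*, a core repressor, was 6.58 and 6.79 in the TAC libraries, against 7.17 and 7.37 in the sham libraries (-0.59 ± 0.18 SE, adjusted p = 0.045). *Bhlhe40*, another repressor, was higher (0.43 ± 0.12 SE). The groups overlapped for *Dbp* but not for *Ciart*. In the TAC rep2 libraries *Dbp* was 12.16 and 11.38. The hour at which each heart was taken is not given in the sources used here, and its part in these differences was not tested.
The *Ciart* promoter is shown for its clock elements. It held 3 matches to CACGTG, the E-box read by CLOCK and BMAL1, from base -116, base -58 and base -44, and 1 to GGGCGG from base -23 (chr3:95882229-95882378 on the minus strand).
Ciart: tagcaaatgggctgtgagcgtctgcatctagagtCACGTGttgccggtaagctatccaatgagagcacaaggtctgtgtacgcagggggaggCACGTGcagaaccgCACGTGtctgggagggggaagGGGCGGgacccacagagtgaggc

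Cell cycle genes had a median of 0.59, and 10 of 31 were called higher and 0 lower, where 6.88% of all genes were called higher. *Prc1*, which bundles spindle microtubules, was 9.14 and 8.98 in the TAC libraries, against 8.71 and 7.16 in the sham libraries (1.13 ± 0.22 SE, adjusted p = 0.003), *Uhrf1*, which keeps DNA methylation through replication, was 7.33 and 7.72 in the TAC libraries, against 6.75 and 6.24 in the sham libraries (1.03 ± 0.21 SE, adjusted p = 0.004), and the replication helicase gene *Mcm5* was 7.84 and 8.17 in the TAC libraries, against 7.42 and 6.80 in the sham libraries (0.89 ± 0.20 SE, adjusted p = 0.0077). The 2 shams were unlike each other in these genes, since the list lay at 0.32 and -0.32 in the sham libraries relative to each gene's sham mean, and at 0.55 and 0.60 in the TAC libraries. The median was 0.85 in the Tg pair and 0.16 in the WT pair. Interferon and antigen presentation genes had medians of 0.02 in the Tg pair and 0.61 in the WT pair, and 10 of 37 were called higher and 0 lower. *Ifi27* was 12.13 and 12.40 in the TAC libraries, against 10.99 and 10.97 in the sham libraries (1.28 ± 0.11 SE, adjusted p = 2.0e-06) and *Oasl2*, an antiviral gene, was 9.26 and 9.26 in the TAC libraries, against 8.30 and 8.77 in the sham libraries (0.73 ± 0.15 SE, adjusted p = 0.0036). Neither list's difference between the pairs was tested.

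Of 12 measured complement and acute phase genes 8 were called higher and 0 lower, with a median of 0.61, and 3 of the 12 are also macrophage markers. *Serpina3n*, a secreted protease inhibitor gene of the acute phase, was 8.09 and 9.88 in the TAC libraries, against 7.28 and 7.01 in the sham libraries (1.84 ± 0.30 SE, adjusted p = 0.00058), higher in the Tg than in the WT TAC library. *Nupr1*, a stress-induced chromatin protein gene, was 9.43 and 9.92 in the TAC libraries, against 8.54 and 8.27 in the sham libraries (1.27 ± 0.16 SE, adjusted p = 7.8e-05). It was 1 of 3 called higher of 24 genes of ER and integrated stress, of which 3 were called lower, among them *Herpud1* (-0.50 ± 0.10 SE). Of 16 heat shock genes 3 were called higher and 0 lower, among them *Hsph1* at 0.78 ± 0.13 SE and *Hsp90aa1* at 0.70 ± 0.14 SE. Of all genes 6.88% were called higher and 5.28% lower. The small counts of the ER stress and heat shock lists are not read as results about those lists.

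Markers of other cell types were read for the same libraries, beside the 6.88% of all genes called higher and 5.28% called lower. Endothelial markers had a median of 0.01, with 1 of 19 called higher (the tight junction gene *Cldn5*, 0.64 ± 0.12 SE) and 0 lower. Of 15 smooth muscle and pericyte markers 2 were called higher, among them *Acta2*, also a gene of myofibroblasts (0.77 ± 0.14 SE), and 1, *Smtn*, lower (-0.60 ± 0.11 SE). Of 13 atrial markers 8 were measured, with 4 called higher (*Dkk3*, *Myl4*, *Nppa* and *Mybphl*) and 1 lower, while *Sln*, *Bmp10* and *Myl7* were not among the measured genes. The summed intensity of atrial markers was 15.26 and 15.33 in the TAC libraries, against 14.23 and 14.73 in the sham libraries. *Nppa* alone was 15.22 and 15.28, against 14.16 and 14.68, so the sum mostly reflects that gene and not the list. Of 11 mesothelial markers 6 were measured and 3 called higher, with *Upk3b* at 7.59 and 7.21 in the TAC libraries, against 7.34 and 4.60 in the sham libraries and the library labelled Tg Sham below the other 3. Their summed intensity was 10.68 and 10.36 in the TAC libraries, against 10.51 and 9.80 in the sham libraries, and their part in the matrix result was not tested.

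The TAC rep1 hearts were set against the TAC rep2 hearts to show whether the second set of TAC hearts shared these levels. This test uses the same TAC rep1 libraries as the comparison with sham, so the values stand side by side and are not independent. The 2 sets also differed on the brightest *Kdm3a* probe, with 14.70 and 15.10 in the TAC rep1 libraries and 7.19 and 15.07 in the TAC rep2 libraries. What part that signal has in the differences below was not tested. Limma called 691 of 9577 genes, 397 higher in TAC rep1 (4.15%) and 294 lower (3.07%). Matrix genes were called higher in TAC rep1 for 32 of 48 and lower for 0, with a median of 1.04. *Timp1* differed by 2.63 ± 0.30 SE, adjusted p = 0.0063, *Col3a1* by 1.45 ± 0.16 SE, adjusted p = 0.0055, *Nppa* by 2.48 ± 0.23 SE, adjusted p = 0.0035 and *Myh7* by 2.48 ± 0.45 SE, adjusted p = 0.023. Cell cycle genes were called higher for 19 of 31, and fatty acid oxidation genes were called lower for 15 of 37. *Kcnip2* (-0.32 ± 0.16 SE, adjusted p = 0.26) and *Adam9* (0.25 ± 0.14 SE, adjusted p = 0.33) were not called, and in the TAC rep2 libraries *Kcnip2* was 7.90 and 7.58 and *Adam9* 8.39 and 8.69, beyond the shams in the same direction as TAC rep1.

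Relative to each gene's sham mean, the matrix list had a median of 0.69 and 0.65 in the TAC rep1 libraries, of -0.23 and -0.25 in the TAC rep2 libraries and of 0.08 and -0.08 in the sham libraries. Fibroblast markers had 0.69 and 0.73, -0.15 and -0.25 and 0.06 and -0.06 in the same order. Macrophage markers had 0.60 and 0.57, 0.07 and 0.06 and 0.04 and -0.04. For these 3 lists the TAC rep1 libraries lay above the others and the TAC rep2 libraries lay near the shams or below them. Fatty acid oxidation genes had -0.38 and -0.42, 0.26 and -0.12 and -0.06 and 0.06, with both TAC rep1 libraries lowest. No sham heart carries an animal number near 17 or 18, so a difference of TAC rep2 from sham cannot be told apart from a difference between the 2 ranges of animal numbers.

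**Figure D5:**
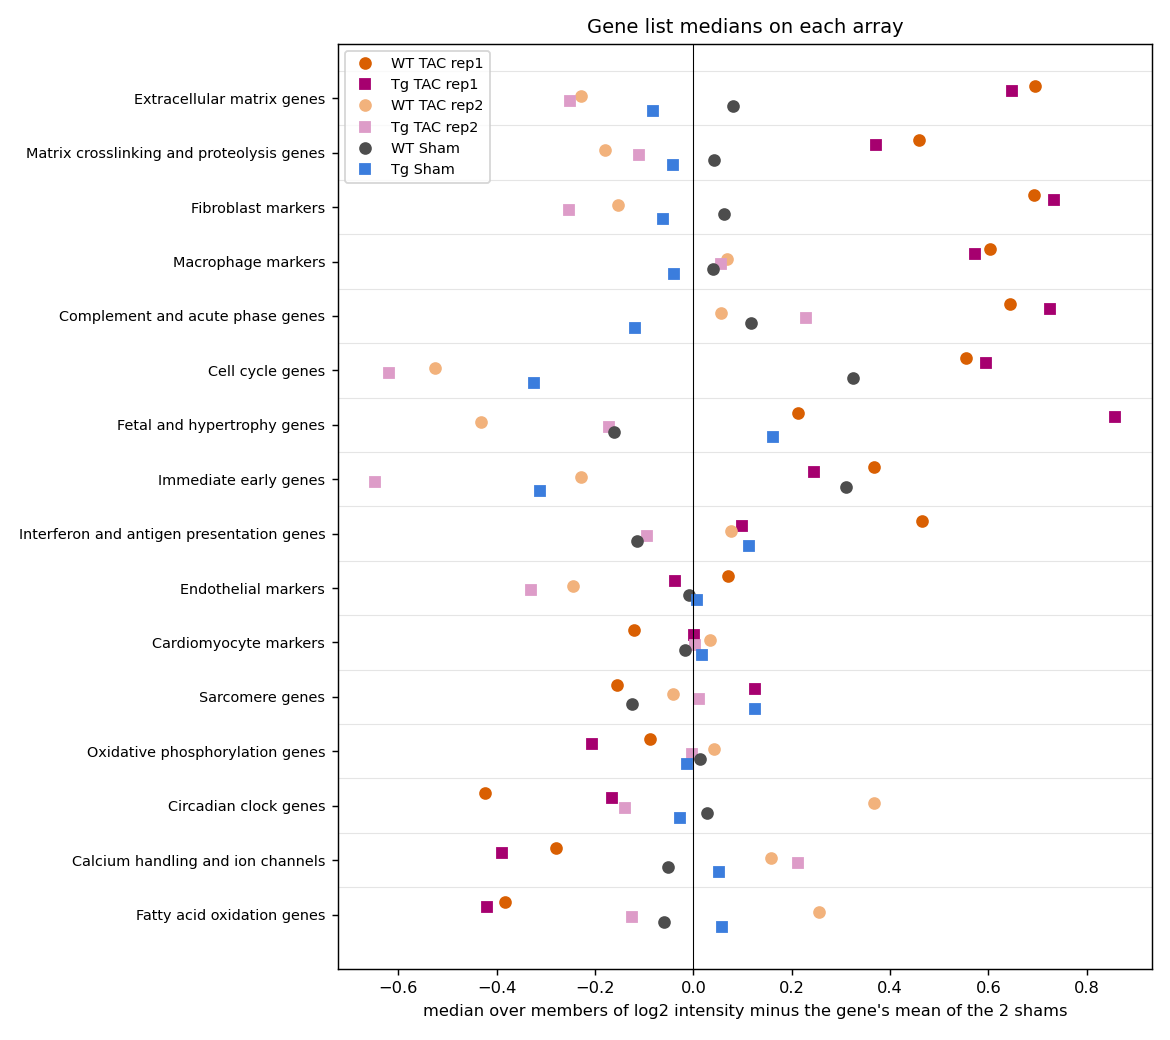
Median over the measured members of log2 intensity minus the gene's mean of the 2 shams, for 16 gene lists on each of the 6 arrays. The TAC rep1 points stand to the right of both shams for matrix, fibroblast and macrophage genes and to the left for fatty acid oxidation genes, and for matrix genes the paler TAC rep2 points stand to the left of both shams.

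Without the libraries labelled WT TAC rep1 and Tg Sham, those whose level on the brightest *Kdm3a* probe went against the label, Tg TAC rep1 and WT Sham remained, 1 array on each side, and values are given with no test. These 2 arrays are among the 4 that the calls came from, and genotype by label cannot be told apart from surgery between them. The matrix list had a median of 0.59, fibroblast markers of 0.70, macrophage markers of 0.53, complement and acute phase genes of 0.65, fetal and hypertrophy genes of 0.96, fatty acid oxidation genes of -0.38 and channel genes of -0.26. *Timp1* differed by 3.08, *Nmrk2* by 4.30, *Nppa* by 1.12, *Ces1d* by -4.38 and *Egr2* by 2.38. Cell cycle genes had a median of 0.17 and clock genes of -0.08, both nearer to 0, and *Dbp* turned to 0.28. Immediate early genes turned to a median of -0.18 and *Tcap* to 0.43. *Sparc* had 0.17, *Cd14* 0.09, *Prc1* 0.28 and *Upk3b* -0.12.

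Of the genes that the study names, 19 of 22 were measured and 16 called higher and 0 lower, with a median of 1.03. The study chose some of them with these samples in view, and the list holds *Kdm3a*, so it is no independent evidence of direction. *Loxl2*, *Postn* and *Adam19* were not measured. Glucocorticoid and fasting responsive genes had a median of 0.00, with 1 of 20 called higher and 1 lower, and of 6 blood cell markers 0 were called higher and 1 lower. Of all genes 6.88% were called higher and 5.28% lower. Of 12 measured enzymes and readers of histone H3 lysine 9 methylation, 1 was called higher, *Kdm3a*, and 1 lower, the demethylase gene *Phf2* at 8.46 and 7.77 in the TAC libraries, against 8.94 and 8.33 in the sham libraries (-0.52 ± 0.15 SE, adjusted p = 0.029). *Phf2*, *Cry2*, *Timp4* and *Gsn* were no longer called with median scaling, with adjusted p-values of 0.095, 0.10, 0.069 and 0.11.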

How the data were processed

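Total RNA from left ventricle was hybridised to Illumina MouseWG-6 bead arrays, 1 per animal. The deposited table of raw values held 1 intensity and 1 detection p-value per probe and array, and the authors had exported it from the scanner software (GenomeStudio 2011.1 per the submitters' processing notes). A quantile-normalized intensity table that the authors made from the same arrays was used as an alternative. Probe names were those of the platform annotation: 34885 of 45281 probes had 1 gene symbol, 18 had several and 10378 had none.

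Raw intensities were background-corrected by normexp with an offset of 16, using the detection p-values, taken to log2 and quantile-normalized over the 6 arrays (limma 3.58.1, R 4.3.3). Probes with a detection p-value below 0.01 on at least 2 of 6 arrays were kept (17014), and the probe with the highest mean stood for each of 9577 genes. Limma with an intensity trend fitted surgery and genotype by label on 4 arrays, with Benjamini-Hochberg adjustment over all genes. TAC rep1 against TAC rep2 and the interaction used all 6 arrays. The procedure was tested on simulated data.

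The members, the 31 gene lists (757 genes) and the tests were chosen with earlier results of these data known. Named were the 12 called genes per direction with the largest difference and no overlap between groups, leaving out predicted genes and unnamed clones, then members of the lists of study genes, immediate early genes and clock genes, and up to 5 of each other list with the smallest p. *Timp4*, *Gsn*, *Pdgfra*, *Tcf21*, *Acta1* and some list members called alone in their direction were named after their values were seen. Each array is labelled with its own animal number. In the comparison of TAC with sham, the p-values rest on how far the WT pair and the Tg pair differ and on spread borrowed from all genes. Each combination of genotype and surgery there held a single animal, so the spread between like animals was not measured. The number of arrays limits the precision.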

Additional observations from a re-analysis of the deposited data

Results flagged for a closer look

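Several results had opposite signs in the Tg pair and the WT pair. Each pair is 1 array minus 1 array, so these differences between the pairs were not tested within the 4 libraries. *Myh7* differed by 1.63 in the Tg pair and by -0.09 in the WT pair, 1.715 apart. *Tgfb1* differed by -0.21 in the Tg pair and by 0.10 in the WT pair, -0.307 apart. In the interaction fitted by limma over all 6 arrays, the adjusted p was 0.94 for *Myh7* and 0.93 for *Tgfb1*. That fit took the genotype labels as given, so these values do not settle whether the responses were alike. The median of glucocorticoid and fasting responsive genes was -0.24 in the Tg pair and 0.17 in the WT pair, -0.415 apart. Endothelial markers had medians of -0.09 in the Tg pair and 0.16 in the WT pair, -0.248 apart. Enzymes and readers of histone H3 lysine 9 methylation had medians of 0.14 in the Tg pair and -0.13 in the WT pair, 0.275 apart. Glucose transport and glycolysis genes had medians of -0.003 in the Tg pair and 0.0083 in the WT pair, -0.011 apart. These medians are small beside the median SE of 0.16 for a gene and are not read as opposite movement.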

How the results depend on the processing

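The number of genes called between TAC and sham rested on the model. The 1165 calls became 3 without the genotype term (938 at an unadjusted p under 0.05), 355 without the intensity trend, 754 with no filter on dim probes, 762 with the mean of a gene's probes, and 0 by the methods' t-test (739 at an unadjusted p under 0.05). With TAC rep2 added as TAC, 0 were called (559 at an unadjusted p under 0.05). The same 6 arrays with the animal number range as a replicate block gave 93 calls, 65 higher and 28 lower. In that fit 38 of 100 named genes (*Acta1* not among the 100) stayed on their side of the threshold. In it 14 of 48 matrix genes, 9 of 20 fibroblast markers, 5 of 29 crosslinking genes, 3 of 21 fetal genes, 2 of 22 macrophage markers, 2 of 23 immediate early genes, 1 of 12 complement genes and 0 of the cell cycle, TGF-beta and interferon genes were called higher, and 2 of 37 fatty acid oxidation genes and 1 of 23 channel genes lower. The labels do not say that the number marks a batch. Across genes, which are not independent replicates, the WT and Tg differences of TAC rep1 from rep2 (1 array minus 1 array each) correlated at 0.54. Without the genotype term, leaving out WT TAC rep1 gave 32 calls, Tg TAC rep1 1, WT Sham 8 and Tg Sham 5. Normalization over the 4 arrays (1274), median scaling (1393), the authors' table (1385), an offset of 50 (1340), no background correction (1379) and other detection rules (848 and 1053) stayed within 1.5 times. Median scaling gave 895 calls between TAC rep1 and rep2 (755 higher) and 0 for the interaction. With TAC rep2 added as TAC, medians turned for fetal genes (-0.0173), natriuretic genes (-0.023), immediate early genes (-0.0358) and cell cycle genes (-0.0066), and differences turned for *Sparc* (-0.165), *Nppa* (-0.412), *Nppb* (-0.35), *Myh7* (-0.47), *Fos* (-0.197), *Junb* (-0.103), *Prc1* (-0.007), *Meox1* (-0.008), *Cldn5* (-0.002) and *Pdgfra* (-0.044). Leaving out 1 library, or both that the brightest *Kdm3a* probe went against (an alternative chosen after seeing the data), moved immediate early genes between -0.18 and 0.5605, neutrophil markers between -0.91 and 0.1746, lymphocyte markers between -0.0832 and 0.0061, *Tgfb1* between -0.512 and 0.096, *Myh7* between -0.086 and 2.159, *Tcap* between -0.595 and 0.43, *Dbp* between -1.831 and 0.284, *Upk3b* between -0.125 and 2.606 and *Pdgfra* between -0.053 and 0.21. Without the genotype term as well, neutrophil markers turned to -0.37, *Tgfb1* to 0.093 and 0.246, *Myh7* to -0.351, *Tcap* to 0.049 and *Egr1* to -0.582 and -0.541. Lymphocyte markers turned to 0.044 with no filter and *Tgfb1* to 0.066 with median scaling. The cause of these changes was not tested.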
